A study of Rattus norvegicus with 4 samples.

Results

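The genes described here encode hormones and neuropeptides of the hypothalamus and the pituitary gland. They were chosen by symbol from a list of 10: Oxt, Avp, Trh, Crh, Pomc, Agrp, Hcrt, Pmch, Gal and Cga. Of these, 9 matched 1 entry each among the 17853 genes of the table, and Pmch was not matched and is not analysed here. Levels are RPKM, which divide the reads of a gene by its length and by the library's size. Averaged over the libraries, 8 of the 9 genes reached 1 RPKM, as did 12160 genes in all, and Agrp did not. The samples came from rat brains after intracerebral hemorrhage, in which a vessel bleeds into the tissue, and were taken from the side of the bleeding (ipsilateral) or the opposite side (contralateral) at 13 months, called adult, or at 21 months, called old. Each of the 4 groups was 1 library of polyadenylated RNA, drawn from RNA of 9 brains that was pooled, with the number of brains in each library not stated. Strain, sex, hemorrhage model, time after the bleeding and the parts of the brain that were taken are not given in the labels, and no group without hemorrhage was among the samples. Every difference between libraries is therefore given with no error and no test, except in 1 fit over both ages. In such tissue, fewer cells of a type and less RNA per cell cannot be told apart.

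Peptide hormones are made as longer precursors, packed into granules, cut by proteases and released. Neurons of the paraventricular and supraoptic nuclei send oxytocin and vasopressin to the posterior pituitary, and smaller neurons release thyrotropin-releasing and corticotropin-releasing hormone to act on the anterior pituitary. Pomc and Agrp mark opposing neurons of the arcuate nucleus that restrain or drive feeding, and hypocretin neurons of the lateral hypothalamus hold wakefulness. Cga encodes the alpha subunit that the glycoprotein hormones of the anterior pituitary share. Several of these genes are also active outside the hypothalamus, such as Crh in cortical interneurons.

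Upstream sequences are shown for the neighbouring pair whose levels differed together, Oxt and Avp, and for Cga, whose level differed most between libraries. They come from RefSeq on the build GRCr8, in which 8 of the 10 genes had an entry; the build behind the deposited table could not be settled from its labels. The bases before the annotated start are printed 5′ to 3′. In Oxt (chr3:138235504-138235753, plus strand) and Avp (chr3:138248523-138248772, minus strand), capitals mark the nuclear receptor half-site AGGTCA and the E-box CANNTG on either strand. In Cga (chr5:54283191-54283220, plus strand), capitals mark the match to TGANGTCA, a motif like the cAMP response element, that lies nearest to the start.
Oxt: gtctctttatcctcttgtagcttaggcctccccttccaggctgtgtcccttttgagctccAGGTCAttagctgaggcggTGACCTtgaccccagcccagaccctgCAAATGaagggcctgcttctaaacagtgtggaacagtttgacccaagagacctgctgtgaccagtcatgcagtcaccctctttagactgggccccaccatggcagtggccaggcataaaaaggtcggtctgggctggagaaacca
Avp: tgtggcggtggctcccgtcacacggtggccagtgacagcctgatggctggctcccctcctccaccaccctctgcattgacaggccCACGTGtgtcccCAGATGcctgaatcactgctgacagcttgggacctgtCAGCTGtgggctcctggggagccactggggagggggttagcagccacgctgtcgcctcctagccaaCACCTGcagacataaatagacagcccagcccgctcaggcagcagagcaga
Cga: taagatcaaacTGATGTCAtggtaattata

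Within 250 bases before the start, Oxt held 2 matches to AGGTCA, with first bases at -190 and -171, and 1 to CANNTG. Avp held 0 matches to AGGTCA and 4 to CANNTG, at -165, -153, -116 and -50. Cga held 2 matches to TGANGTCA, at -209 and -138, the first of which overlaps a match to AGGTCA. Of 33469 annotated promoters searched in the same window on both strands, 14.1% held AGGTCA, 65.5% CANNTG and 8.88% TGANGTCA. Of the motifs searched, Oxt and Avp thus had only the E-box in common, which most promoters hold. A match describes letters and not a bound site.

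Oxt and Avp were the highest of the 9 genes in every library. The plot of levels by library shows them apart from the rest: the other 7 genes lay at or below 7.32 RPKM, while the lowest value of Oxt was 13.3 RPKM and that of Avp 17.7 RPKM. Together they made up 65.3% of the summed RPKM of the 9 genes in the 13 month ipsilateral library, 69.5% contralaterally, and 75.9% and 53.5% at 21 months. Means over the 4 libraries ran from Avp (27.7 RPKM) and Oxt (20.7 RPKM) through Trh (6.08), Gal (4.53), Crh (3.81), Pomc (3.72), Cga (3.09) and Hcrt (1.91) to Agrp at 0.345 RPKM. From Trh to Cga each gene's range over the libraries overlapped that of its neighbours in this order. Agrp lay below every other gene in every library.

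**Figure D1:**
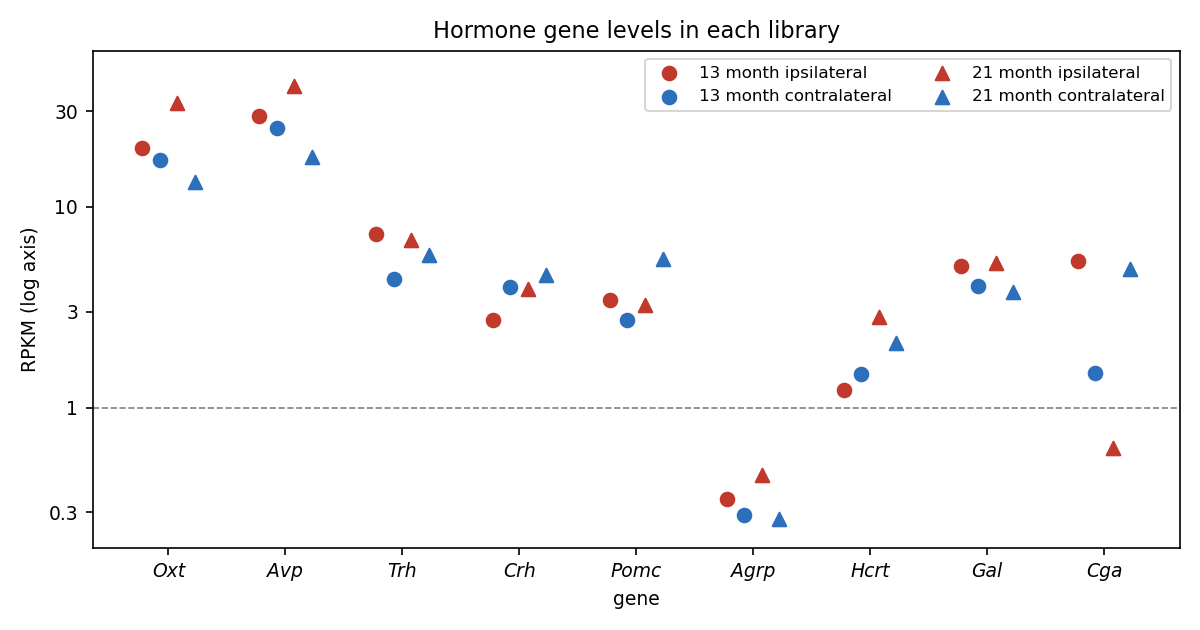
RPKM on a log axis for the 9 hormone genes, each point being 1 library (circles 13 months, triangles 21 months; red ipsilateral, blue contralateral), with the dashed line at 1 RPKM. Oxt and Avp are highest in the 21 month ipsilateral library, at 32.8 and 40.2 RPKM, where Cga is lowest, at 0.63 RPKM.

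Oxytocin and vasopressin transcripts were highest on the bleeding side of old rats and lowest on their opposite side. Oxt (ENSRNOG00000021225, chromosome 3) had 19.6 RPKM ipsilaterally and 17.1 RPKM contralaterally at 13 months, and 32.8 and 13.3 RPKM at 21 months. Avp (ENSRNOG00000021229, chromosome 3), which encodes the antidiuretic hormone vasopressin, had 28.3 and 24.7 RPKM at 13 months, and 40.2 and 17.7 RPKM at 21 months. Both 13 month libraries lay between the 21 month values for both genes. On the log2(RPKM + 1) scale, on which all ratios below are given, the side ratio (ipsilateral against contralateral) was 0.18 for Oxt and 0.19 for Avp at 13 months. At 21 months it was 1.25 and 1.14, from RPKM quotients of 2.47 and 2.28. Only 454 of 12160 genes had a higher ratio than Oxt at 21 months, and 545 a higher one than Avp. The ages differed in opposite directions on the 2 sides. From 13 to 21 months the ratio was 0.72 for Oxt and 0.49 for Avp ipsilaterally, and -0.35 and -0.46 contralaterally. The quotient of Avp to Oxt varied less than either gene: it was 1.45 and 1.44 at 13 months and 1.23 and 1.33 at 21 months, ipsilateral first. The genes next to the pair did not share its pattern. Mrps26, a mitochondrial ribosome gene beside Oxt, ranged from 40.1 to 43.8 RPKM, and Ubox5, beside Avp, from 2.47 to 3.04 RPKM.

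The hypothalamic releasing hormones of the thyroid and adrenal axes differed less. Trh (ENSRNOG00000011824, chromosome 4), the thyrotropin-releasing hormone precursor, had 7.32 RPKM ipsilaterally and 4.36 RPKM contralaterally at 13 months, and 6.87 and 5.77 RPKM at 21 months. Both ipsilateral libraries lay above both contralateral ones, with side ratios of 0.63 and 0.22. Crh (ENSRNOG00000012703, chromosome 2), which starts the adrenal stress response, had 2.73 and 3.97 RPKM at 13 months and 3.92 and 4.60 RPKM at 21 months. It was the 1 gene lower ipsilaterally at both ages, with side ratios of -0.41 and -0.19, although with libraries scaled to general neuron genes, an alternative added after seeing the data, the ratio at 21 months was 0.05. The sides did not overlap, but 3.92 RPKM ipsilaterally at 21 months and 3.97 RPKM contralaterally at 13 months were nearly equal.

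Of the melanocortin genes, only Pomc was high enough to compare. Pomc (ENSRNOG00000012686, chromosome 6) encodes the precursor of alpha-MSH, ACTH and beta-endorphin. It had 3.44 and 2.73 RPKM at 13 months, and 3.25 RPKM ipsilaterally and 5.47 RPKM contralaterally at 21 months, so that 1 library, the old contralateral one, lay above the other 3. Its side ratio was 0.25 at 13 months and -0.61 at 21 months, and its contralateral age ratio of 0.79 was exceeded by 43 genes. Agrp (ENSRNOG00000039001, chromosome 19), whose product blocks melanocortin receptors, had 0.35 and 0.29 RPKM at 13 months and 0.46 and 0.28 RPKM at 21 months. Both ipsilateral values were the higher ones, but at under 0.5 RPKM no ratio of Agrp is interpreted.

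Hcrt and Gal stand for peptides of the lateral hypothalamus and of wider brain circuits. Hcrt (ENSRNOG00000018892, chromosome 10), the hypocretin (orexin) precursor, had 1.22 and 1.47 RPKM at 13 months and 2.84 and 2.10 RPKM at 21 months. Both old libraries lay above both adult ones, by a log2 ratio of 0.79 ipsilaterally and 0.33 contralaterally, and 127 and 281 genes had higher age ratios. With 0.1 RPKM added in place of 1 the ipsilateral age ratio of Hcrt was 1.16. Its side ratios were small, at -0.15 and 0.31, and the first was 0.10 under neuron scaling. Gal (ENSRNOG00000015156, chromosome 1), the precursor of galanin, a peptide known to be induced in injured neurons, was the steadiest of the 9 on the RPKM scale, its highest value being 1.39 times its lowest. It had 5.05 and 4.03 RPKM at 13 months and 5.24 and 3.78 RPKM at 21 months, higher ipsilaterally at both ages with ratios of 0.27 and 0.38.

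Cga differed most. Cga (ENSRNOG00000009269, chromosome 5) had 5.37 RPKM ipsilaterally and 1.48 RPKM contralaterally at 13 months, and 0.63 RPKM ipsilaterally and 4.88 RPKM contralaterally at 21 months. The 13 month ipsilateral and 21 month contralateral libraries were thus alike and high, and the highest value was 8.52 times the lowest. The side ratio was 1.36 at 13 months and -1.85 at 21 months, where 3 of 12160 genes were lower. Their difference, -3.21, was the lowest of all 12160 genes. With 0.1 RPKM added in place of 1 it was -4.56. Other anterior pituitary genes, in a list that does not hold Pomc, were close to 0. Of 11 matched hormone and factor genes of that gland, 0 had a mean of 1 RPKM and the highest single value was 0.64 RPKM, that of Lhx4. Tshb and Lhb encode beta subunits that pair with Cga. Tshb had 0.19 and 0.11 RPKM at 13 months and 0.00 and 0.08 RPKM at 21 months, in the side order of Cga at both ages. Lhb had 0.32 and 0.51 RPKM, then 0.57 and 0.53 RPKM, in the opposite order at both. All these values are under 1 RPKM, and their order is not interpreted. Gh1, growth hormone, and Pou1f1, the factor of growth hormone cells, had at most 0.04 and 0.05 RPKM. Over the 11 genes the summed level was 1.47 and 1.86 RPKM at 13 months and 1.45 and 1.60 RPKM at 21 months. The sums were thus lower ipsilaterally at both ages, as Cga was at 21 months alone. Their order at 13 months rests on Lhx4, which had 0.12 RPKM ipsilaterally and 0.64 RPKM contralaterally, and without which it would turn round. The part of pituitary tissue in the values of Cga was not tested. Low values in this table need care: Npy and Eno2, known as abundant brain transcripts and picked out after their values were seen, were at or under 0.03 and 0.05 RPKM.

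**Figure D2:**
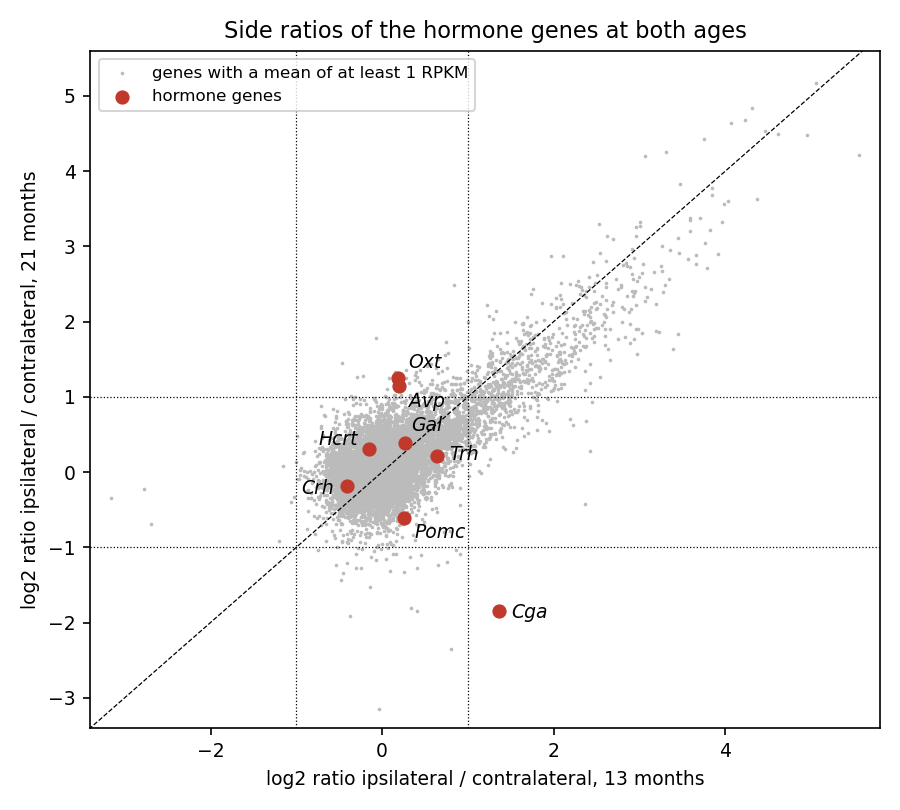
Side ratio on the log2(RPKM + 1) scale, ipsilateral against contralateral, at 13 months (x axis) and at 21 months (y axis); grey points are the 12160 genes averaging 1 RPKM or more, red points the 8 hormone genes among them, dotted lines mark ratios of 1 and -1 and the dashed line equal ratios. Oxt and Avp lie above 1 on the y axis alone, and Cga lies at 1.36 and -1.85.

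As a group, the 8 genes showed no common direction. At 13 months 6 were higher ipsilaterally and 2 lower, with a median ratio of 0.22, against a median of 0.01 and 50.8% higher among all 12160 genes. At 21 months 5 were higher and 3 lower, with a median of 0.26, against 0.09 and 60.8%. Past a log2 ratio of 1 ipsilaterally at 13 months was Cga alone, 1 of 8, in a comparison where 7.19% of all genes were higher and 0.0658% lower by as much; under neuron scaling Trh reached 1.02. At 21 months Oxt and Avp were higher by as much and Cga lower, against 5.61% and 0.288% of all genes. Oxt, Avp, Trh and Gal were higher ipsilaterally at both ages, Crh was lower at both, and Pomc, Hcrt and Cga had opposite signs at the 2 ages. From 13 to 21 months ipsilaterally 0 were higher by at least 1 and Cga was lower, at -1.97, against 0.321% and 0.658% of all genes. Contralaterally Cga was higher, at 1.25, and 0 genes of the group were lower, against 0.206% and 0.132%. The side ratio at 21 months exceeded that at 13 months by more than 1 for Oxt, at 1.06, and by 0.95 for Avp, while for Cga it was lower by more than 1, against 0.65% of all genes above and 0.757% below. With the libraries scaled to general neuron genes, the value of Oxt was 0.92, and with 0.1 RPKM added in place of 1 that of Pomc went from -0.86 to -1.06. These comparisons reuse the same libraries, so that 1 library enters both a side ratio and an age ratio. Oxt and Avp have their highest value, and Cga its lowest, in the 21 month ipsilateral library, which enters both the side ratio at 21 months and the ipsilateral age ratio.

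Over both ages, limma with age as a term called Oxt and Avp as risen on the ipsilateral side and 0 of the 8 as fallen, where 13.3% of 12160 genes rose and 0.814% fell. The rise of Oxt was 0.71 ± 0.21 in log2 units (SE, 2 libraries a side; adjusted p = 0.0195 in limma) and that of Avp 0.67 ± 0.20 (adjusted p = 0.0246 in limma). Trh (0.43 ± 0.17, adjusted p = 0.13 in limma), Gal (0.33, adjusted p = 0.262 in limma) and Crh (-0.30, adjusted p = 0.314 in limma) did not pass, nor did Pomc, Hcrt and Cga. The fit has 1 residual degree of freedom and borrows its spread from all genes, so its p-values reflect only how these 4 libraries differ, which may be technical, and the 2 ages differ: the ratios at 13 months, 0.18 for Oxt and 0.19 for Avp, were 0.09 for both without mitochondrial genes in the library sums and 0.61 and 0.63 under neuron scaling. The calls ended under 5 of 7 alternatives, with adjusted p in limma from 0.00102 to 0.422 for Oxt and from 0.00101 to 0.407 for Avp over all settings.

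The length of a gene on the genome moved with the side ratio at 21 months. Among 215 genes with an annotated span under 2 kb in GRCr8, the median side ratio was 0.31 at 21 months and 17.2% were higher by at least 1, against 0.04 and 13.5% at 13 months. Among 5669 genes of 25 kb and over, the median was 0.03 at 21 months and -0.01 at 13 months, and 4.0% and 5.77% were higher by at least 1. Oxt spans 841 bases, Hcrt 1236, Crh 1865 and Avp 1979. Of these 4 short genes, Oxt and Avp lay far above the median of their class at 21 months, Hcrt (0.31) lay on it and Crh (-0.19) below it, as the plot by span shows. These classes were chosen after the data were seen, 10886 genes had a span, and the part of gene length in the values of Oxt and Avp was not tested.

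**Figure D3:**
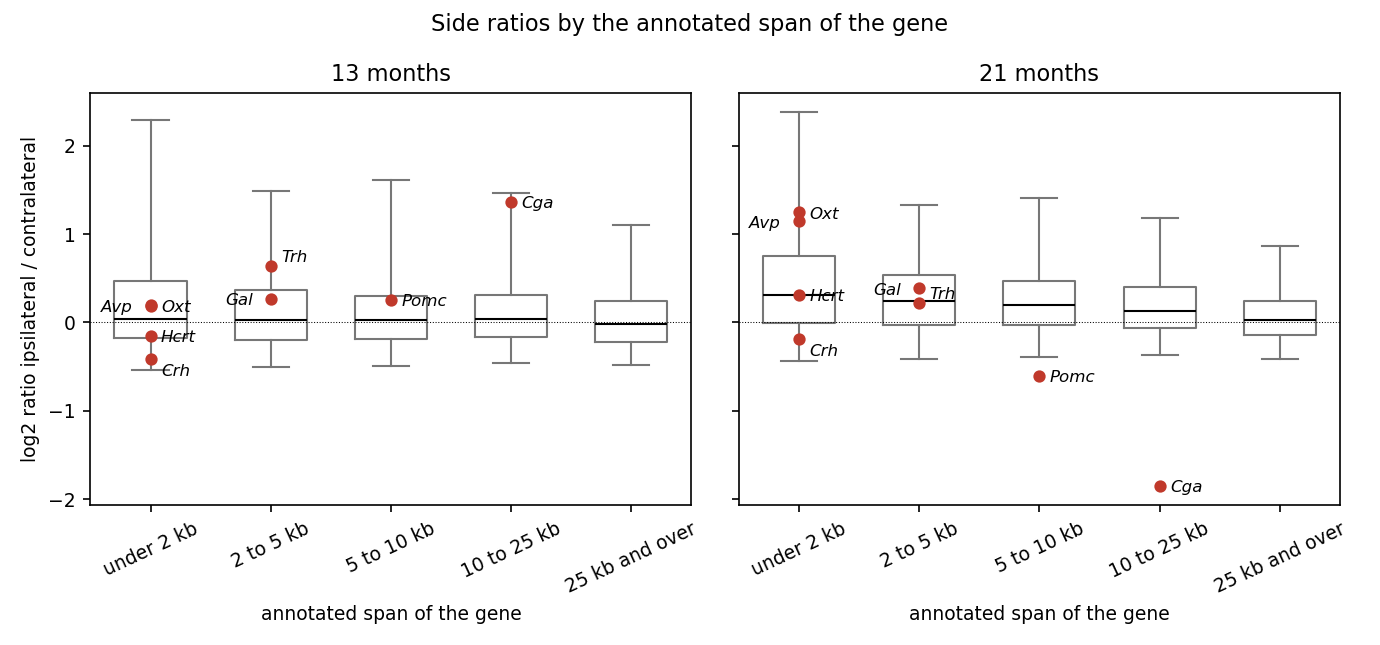
Side ratio on the log2(RPKM + 1) scale, ipsilateral against contralateral, at 13 months (left) and 21 months (right), on the y axis by the annotated span of the gene on the x axis; boxes give the quartiles and median of all genes of a class, whiskers the middle 90%, and red points the hormone genes. At 21 months the medians are 0.31 under 2 kb and 0.03 at 25 kb and over, with Oxt and Avp above the box of their class.

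Genes with the most similar course over the 4 libraries were sought for Oxt, Avp and Cga, the 3 genes whose values spanned a log2 range of at least 1. Likeness was the Euclidean distance of log2(RPKM + 1) after subtracting the mean of each gene. Nearest to Oxt were LOC100361694 (0.12), Sh3bgrl3 (0.12), which encodes a small thioredoxin-like protein, and Oaz1 (0.14), the inhibitor of ornithine decarboxylase. Oaz1 had 92.8 and 82.4 RPKM at 13 months and 164 and 72.5 RPKM at 21 months. Avp was the 12th nearest to Oxt (0.19), and Oxt the 7th nearest to Avp, after Rab43 (0.08), LOC100361694 (0.13) and Pxdc1 (0.14) among others. Within a distance of 0.25 lay 28 genes for Oxt and 41 for Avp. Within that distance of Cga lay 0 genes. The nearest were AABR07065438.1 (0.65), Rpl31l4 (0.72) and Mrpl33 (0.78), a mitochondrial ribosome gene. Mrpl33 had 212 and 160 RPKM at 13 months and 57.5 and 209 RPKM at 21 months.

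Receptor genes for these peptides mostly had low values, which need the same care as those of Npy and Eno2 above. Of 25 listed receptor genes 20 matched and 3 had a mean of at least 1 RPKM, and limma called 0 of these. Crhr1, the main brain receptor for corticotropin-releasing hormone, had 1.80 and 1.86 RPKM at 13 months and 2.20 and 2.09 RPKM at 21 months, nearly level between the sides (-0.03 and 0.05). Mchr1, the receptor for melanin-concentrating hormone, had 2.67 and 3.87 RPKM, then 3.02 and 3.19 RPKM. Trhr, the receptor for thyrotropin-releasing hormone, had 1.16 and 1.65 RPKM, then 1.06 and 1.76 RPKM. It was lower ipsilaterally at both ages (-0.29 and -0.42), opposite in sign to Trh itself. The other 17 stayed below 1 RPKM in every library. Among them the vasopressin receptor gene Avpr1a had 0.51 to 0.68 RPKM, the oxytocin receptor gene Oxtr at most 0.19 RPKM, and the melanocortin receptor gene Mc4r 0.55 to 0.93 RPKM.

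Genes that process and store peptides lay mostly on the low side of the bleeding hemisphere, unlike Oxt and Avp. Of 15 genes past the filter, 13 were lower ipsilaterally at 13 months (median -0.42) and 11 at 21 months (median -0.18), against all-gene medians of 0.01 and 0.09; under neuron scaling these medians were 0.02 and 0.11, against 0.40 and 0.34. General neuron genes had similar medians (-0.40 and -0.28). Over both ages 2 of the 15 rose in limma, near the 13.3% of all genes that did, and 1 fell, against 0.814% of all genes. Those that rose were the protease genes Prcp (1.64, adjusted p = 1.73e-07 in limma), which cuts alpha-MSH at its end, and Furin (0.96, adjusted p = 0.000211 in limma), a convertase of most cell types. The granule protein gene Scg2 fell by 0.57 on the log2 scale (adjusted p = 0.024 in limma). Pcsk2, the neuronal convertase that cuts Pomc, had 19.8 and 28.5 RPKM at 13 months and 25.2 and 28.6 RPKM at 21 months. Resp18, a granule protein of neuroendocrine cells, had 20.0 and 27.1 RPKM, then 39.3 and 24.8 RPKM, so that like Oxt and Avp it was highest in the 21 month ipsilateral library. Genes of other lists were highest there too, such as the cortical neuron gene Slc17a7 (150 RPKM) and the general neuron gene Tubb3 (157 RPKM). How many of all genes were highest in that library was not counted, so this likeness is not particular to peptide genes. The 7 binding, degrading and accessory genes past the filter had medians of -0.24 and 0.04 and 0 calls in limma; Trhde, which degrades thyrotropin-releasing hormone, had ratios of -0.33 and -0.18, and Pgpep1, a peptidase that removes pyroglutamate, 0.24 and 0.67.

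Other neuropeptides were mostly lower ipsilaterally at 13 months. Of 13 genes past the filter 12 were lower then (median -0.40) and 9 at 21 months (median -0.19, or 0.06 under neuron scaling), and limma called 0. Among all genes 50.8% and 60.8% were higher ipsilaterally, with medians of 0.01 and 0.09, while general neuron genes lay at -0.40 and -0.28, as low as the neuropeptides. Adcyap1 and Tac1, which encode PACAP and substance P, had -0.65 and -0.64 at 13 months, and Nucb2, the nesfatin precursor, had the highest ratio at 0.61. At 21 months Sst, the somatostatin precursor, had the highest ratio at 0.52, with 67.0 RPKM ipsilaterally and 46.3 RPKM contralaterally. Sst had 36.7 and 44.4 RPKM at 13 months, so it too, like genes of other lists, was highest in the old ipsilateral library. Cartpt, a partner peptide of Pomc neurons, was higher at 21 months on both sides (0.67 and 0.70).

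Of 30 matched factors and markers of hypothalamic regions and neurons, 13 averaged 1 RPKM or more and 16 stayed below it in every library. The summed level was 74.9 and 95.9 RPKM at 13 months and 83.7 and 99.3 RPKM at 21 months, lower ipsilaterally at both ages, and most of it was Hap1 with 46.4 to 62.1 RPKM. Medians of the 13 genes past the filter were -0.18 and -0.07, and 0.17 and 0.14 under neuron scaling. Lhx9 alone passed in limma and fell, by 0.57 on the log2 scale (adjusted p = 0.0253 in limma). Sim1 and Otp, needed for the neurons that make oxytocin, vasopressin and corticotropin-releasing hormone, had at most 0.16 and 0.98 RPKM. Sim1 had 0.16 and 0.12 RPKM at 13 months and 0.10 and 0.08 RPKM at 21 months, and Otp 0.52 and 0.98 RPKM, then 0.70 and 0.76 RPKM. Neither was highest in the old ipsilateral library, and both averaged under 1 RPKM. Ngb and Baiap3, with the 2 highest side ratios of the list at 21 months (0.45 and 0.16), were highest in that library, at 1.88 and 4.66 RPKM. Lepr and Dlx2, with the 2 highest at 13 months (0.38 and 0.03), were not. Tanycyte genes, 7 past the filter, had medians of -0.20 and 0.48; Vim (2.24, adjusted p = 2.24e-09 in limma) and Adm (0.84, adjusted p = 0.00221 in limma), which other cells also express, rose, while Rax, the defining factor, had at most 0.12 RPKM. The part of tissue composition in the hormone gene values was not tested.

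A pair of lists, known glucocorticoid response genes and genes of thyroid hormone handling, was also described; no link to the hormone genes was tested. Of 13 glucocorticoid response genes past the filter, 8 were higher ipsilaterally at 13 months (median 0.09) and 6 at 21 months (median -0.05), against 50.8% and 60.8% of all genes. Only the metallothionein gene Mt2A passed in limma, 1 of 13 where 13.3% of all genes rose; it rose by 1.56 (adjusted p = 2.75e-06 in limma). The 9 genes of thyroid hormone handling had medians of -0.33 and -0.12; Ttr, the carrier made by the choroid plexus, alone passed and fell, by 0.81 on the log2 scale (adjusted p = 0.00134 in limma), as did 5 of 10 choroid plexus genes, Ttr among them.

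**Figure D4:**
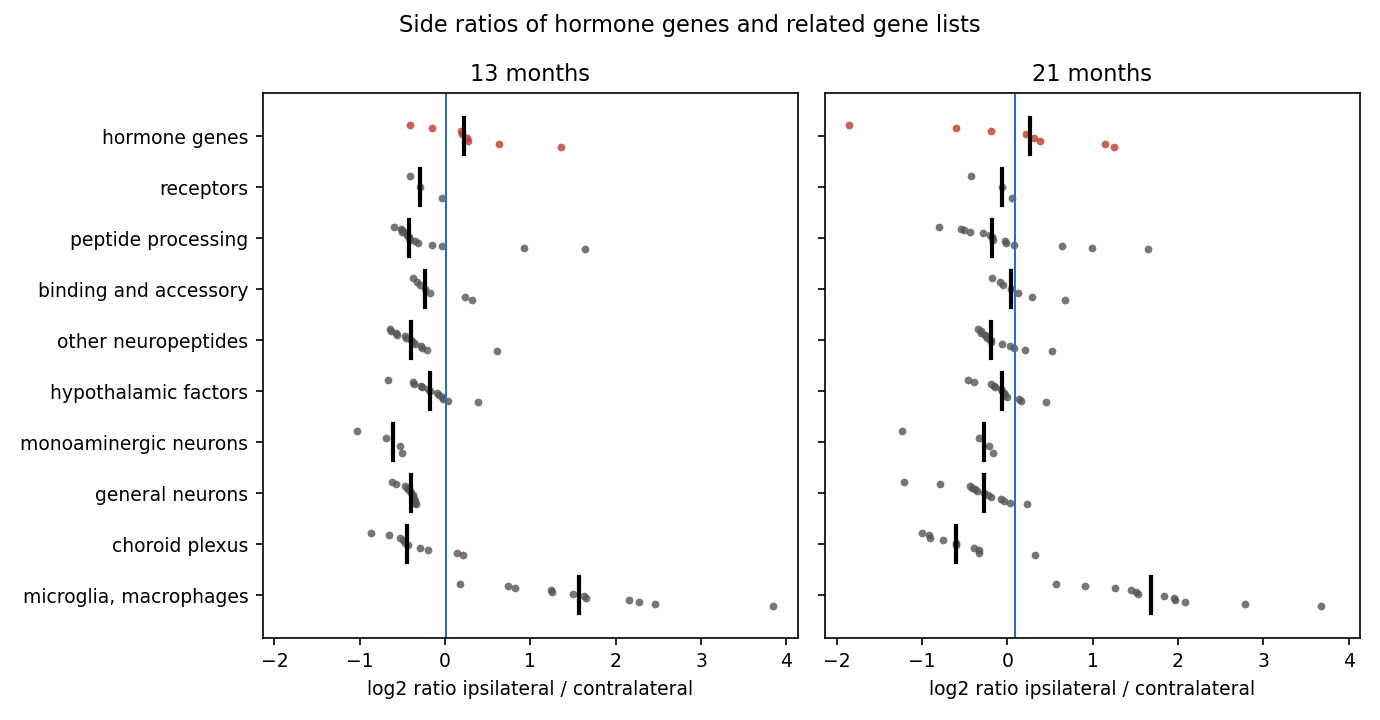
Side ratio on the log2(RPKM + 1) scale, ipsilateral against contralateral, at 13 months (left) and 21 months (right), each point being 1 gene that averages 1 RPKM or more; black bars are medians of a list and the blue line is the median of all 12160 genes. Medians of the hormone genes are 0.22 and 0.26, whereas those of peptide processing genes are -0.42 and -0.18 and of microglia and macrophages 1.56 and 1.69.

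Other tissue markers differed between the same libraries. Against the 13.3% of all genes that rose and the 0.814% that fell, 11 of 12 microglia and macrophage genes rose in limma, with median ratios of 1.56 and 1.69. General neuron genes had medians of -0.40 and -0.28 (13 genes, 2 fell). Striatal projection neuron genes had -0.58 and -0.22 (12 genes, 2 fell), cortical ones -0.36 and 0.11 (11 genes, 0 called), thalamic ones -0.41 and -0.36 (10 genes, 5 fell) and choroid plexus ones -0.45 and -0.60 (10 genes, 5 fell). Monoaminergic neuron genes had -0.61 and -0.27 (4 genes, 2 fell, Th and Tph2). Pineal and photoreceptor genes had -2.69 and -0.35 (5 genes, 3 fell), and Tph1 was at 10.4 RPKM in the 13 month contralateral library against at most 0.44 RPKM elsewhere. Summed RPKM per library was 391306 and 395490 at 13 months, contralateral first, and 388632 and 402100 at 21 months, and read depth is unknown. The share of mitochondrial genes in that sum was lower ipsilaterally, at 18.5% against 23.3% at 13 months and 20.6% against 24.1% at 21 months. With these genes left out of the library sums, the adjusted p in limma was 0.145 for Oxt and 0.153 for Avp.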

How the data were processed

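Polyadenylated RNA of 4 rat brain samples was sequenced, 1 library in each group. Per the labels' protocols, total RNA of 9 rat brains was pooled in equal amounts, 10 µg per sample went into directional libraries, and it is not stated how many brains each library drew on. Among tools, cutadapt, TopHat2 and edgeR are listed in the submitters' processing notes, with no version, and the build listed is GRCh38, a human one, although gene identifiers are rat Ensembl ones; how reads were counted is not given in the sources used here. All values deposited by the authors are RPKM, rounded to 0.01. Depth is unknown: the lower quartile of olfactory receptor values above 0 was 0.02 RPKM in each library, too near the rounding step to recover whole reads.

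Ratios were computed on log2(RPKM + 1) for genes averaging 1 RPKM or more (5693 of 17853 left out); they understate changes of low genes. A log2 ratio of 1 or -1 was counted. limma 3.58.1 (R 4.3.3, eBayes, two-sided, Benjamini-Hochberg threshold 0.05) fitted side with age as a term. Its residual is the age-by-side difference. The fit was also run on simulated data with seeded changes that were equal at both ages. That run cannot show how the fit behaves where the ages differ, as they do for Oxt and Avp. No fit was made for age, since both sides may come from the same rats. Where table entries shared a symbol, the one with the highest mean was used. Of 264 entries in 17 gene lists 238 matched. The genes and lists were chosen with earlier results of these data known. Named genes were drawn from the listed 10, the receptors and the 2 highest and 2 lowest of each list described. The 3 genes nearest in course and a few composition markers were also named. Not every gene at an end of a list is named. Pcsk2, Lhx4, Tshb, Lhb, Pou1f1, Sim1, Otp, Rax, Npy, Eno2, Mrps26 and Ubox5 lie outside these rules and were chosen once their values had been seen. The alternatives were other pseudocounts, filters, scalings and no age term, the scaling to neuron genes being added after seeing the data.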

Additional observations from a re-analysis of the deposited data

Results flagged for a closer look

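For 3 hormone genes and 2 gene lists the ratio of the sides had opposite signs at the 2 ages, each by at least 0.1 on the log2 scale. With 1 library in each group these differences between ages were not tested. Cga had a difference of -3.21 (1.36 at 13 months, -1.85 at 21 months). Pomc had a difference of -0.86 (0.25 and -0.61). Hcrt had a difference of 0.46 (-0.15 and 0.31). Among the lists, cortical projection neuron genes had a median difference of 0.46 (list medians -0.36 and 0.11) and tanycyte genes of 0.23 (-0.20 and 0.48).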

How the results depend on the processing

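The labels give no replicate numbers to pair by; the age term sets the sides of each age side by side, and without it the adjusted p in limma was 0.173 for Oxt and 0.15 for Avp. Leaving out a library would remove a group, so the ratio of each age stands beside the fit. Among the hormone genes' ratios under alternatives, 202 moved by less than 0.3 on the log2 scale and 13 by more; 0 ratios past 1 changed sign. Smaller ones did: scaled to general neuron genes, Crh had 0.05 at 21 months and Hcrt 0.10 at 13 months, the ipsilateral age ratio of Gal was -0.03 (-0.01 under median-ratio scaling) and its difference of side ratios -0.01, and that scaling moved the all-gene median side ratio to 0.40 and 0.34. In limma Oxt and Avp passed under median-ratio and neuron scaling and missed the threshold under the other 5; Trh (adjusted p = 0.00587) and Gal (adjusted p = 0.00978) passed with neuron scaling alone. Counts of all genes past 1 or called moved by over 1.5 times as follows. With 0.1 RPKM added, 34 (13 months) and 59 (21 months) were lower ipsilaterally; 88 were higher and 139 lower with age ipsilaterally, 48 and 56 contralaterally, and 196 and 180 in the difference of the side ratio. Keeping genes that average 5 RPKM or more, 494 were higher and 3 lower at 13 months, and 413 were higher at 21 months. Under that filter 25 were higher with age ipsilaterally, 16 higher and 9 lower contralaterally, and limma called 841 and 40. Fewer genes pass that filter, so its counts do not share a total with the main ones. Median-ratio scaling gave 50 higher in the difference and 248 fallen in limma. Sums without mitochondrial genes gave 17 lower at 13 months. No age term gave 27 fallen, and no filter 0 risen and 0 fallen in limma, where 2641 higher and 719 lower genes had an unadjusted p under 0.05. Neuron scaling gave 1502 higher and 3 lower at 13 months, 1084 and 15 at 21 months, 126 lower with age ipsilaterally, 41 and 158 in the difference, and 4448 risen and 12 fallen in limma. The cause was not tested. Depth is unknown, which leaves the values of Agrp and of most receptors least certain.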
